A study of Mus musculus with 12 samples.

Results

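The drug conjugation enzymes and carboxylesterases of the mouse were followed in whole jejunum, the middle stretch of the small intestine, after induced loss of Fgfr1op, a centrosome gene now called Cep43. The group held every gene with a probe set of its own whose symbol began with Ugt1, Ugt2, Ces1, Ces2, Ces3, Sult1, Sult2, Gsta, Gstm, Gstp, Gstt, Gsto or Gstk, except Gsta4. It comprised 49 of the 19938 genes tested. The rule used gene symbols only, but it was chosen with earlier results of these data known. The Gstm3 gene had 2 probe sets, of which the one with the higher mean was used. There were 8 Ugt2, 6 Sult1, 4 Sult2, 1 Gsta, 7 Gstm, 2 Gstp, 4 Gstt, 2 Gsto, 1 Gstk, 7 Ces1, 5 Ces2 and 2 Ces3 genes. The Ugt1 family had no member, because its 1 probe set carried several gene symbols. A total of 10 probe sets of these families carried several symbols and are not described.

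Wild-type (WT) and Fgfr1op KO mice were compared on 3 days counted post-tamoxifen, day 6, day 9 and day 12, with 2 mice in each of the 6 groups and 1 Affymetrix Mouse Gene 1.0 ST array per mouse. The protocol, written for the mice without naming a genotype, states tamoxifen injections of 75 mg per kg, given on each of 5 days. The sources used here do not give the promoter that drives the recombinase, the deleted stretch of the gene, or the strain, sex and age of the mice. They also leave unstated whether WT mice were injected, carried the recombinase or were littermates. Values are log2 signals, so a difference of 1 is a doubling. All differences are KO minus WT, with the standard error (SE) of the difference and a limma p-value adjusted over the 19938 genes, and the threshold for a call was an adjusted p of 0.05.

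The 12 arrays had medians of 5.95 to 6.02, and replicate arrays correlated at 0.992 to 0.997 over all genes. The targeted gene, Cep43, read 6.83 to 7.05 in WT and 6.56 to 6.97 in KO mice, and the ranges overlapped. Its difference was -0.31 at day 6 (adjusted p = 0.267), -0.39 at day 9 (adjusted p = 0.0184) and -0.09 at day 12 (adjusted p = 0.638). Averaged over days it was lower in KO mice by limma, at -0.26 (SE 0.06, adjusted p = 0.00713), and the KO arrays lay below the WT arrays of the same day at days 6 and 9. Its probes may lie outside the deleted part, so they do not check the labels. All 14 enterocyte markers were measured. Their mean log2 signal ran from 12.51 to 12.76 in the 6 WT arrays, from 12.46 to 12.50 in KO mice at day 6, and from 10.97 to 11.49 in KO mice at days 9 and 12. The enterocyte markers did not move evenly. At day 9 Lct (-5.59) and Mep1a (-4.02) fell most, 6 of the 14 did not pass, and the median difference was -0.58. At day 12 Alpi was called higher (0.42). The mean of 12 general epithelial markers was 11.51 to 11.74 in WT and 11.61 to 11.96 in KO mice at days 9 and 12. Single general epithelial markers moved both ways. At day 9, 4 were called higher, among them Krt18 (1.71) and Krt8 (0.84), and 1 lower, Vil1 (-0.85). RNA came from whole tissue, so fewer cells of a type and less RNA per cell cannot be told apart.

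Conjugation enzymes attach a water-soluble group to drugs, hormones, bile acids and dietary compounds. UDP-glucuronosyltransferases (Ugt) add glucuronic acid, sulfotransferases (Sult) add sulfate, and glutathione S-transferases (Gst) add glutathione. Carboxylesterases (Ces) hydrolyse esters and amides, including lipids and ester prodrugs. Villus enterocytes carry much of this capacity in the small intestine and meet ingested compounds before the liver does.

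At days 9 and 12 most called members were lower in KO mice, and the 4 genes called higher at both days were Gsta3, Gstm1, Gstm5 and Gstm6. The Ugt2a3 signal was lower by 5.86 log2 units at day 9, and Ces2a, Ces2e and Ces2g fell at both days. At day 9, 21 members fell and 4 rose, and 24 did not pass. The share called was 51.0%, beside 29.7% of all genes tested (17.1% lower, 12.6% higher). At day 12, 17 members fell, 7 rose and 25 did not pass, a share of 49.0% beside 27.3% of all genes (13.7% lower, 13.7% higher). At day 6 only Ces1g was called, higher in KO mice, a share of 2.0% beside 1.03% of all genes (0.597% higher, 0.431% lower), and 9 of 49 (18.4%) had an unadjusted p under 0.05, beside 11.8% of all genes. The median difference of the members was -0.05, -0.14 and -0.17 at days 6, 9 and 12, beside 0.00, 0.02 and 0.02 over all genes.

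**Figure D1:**
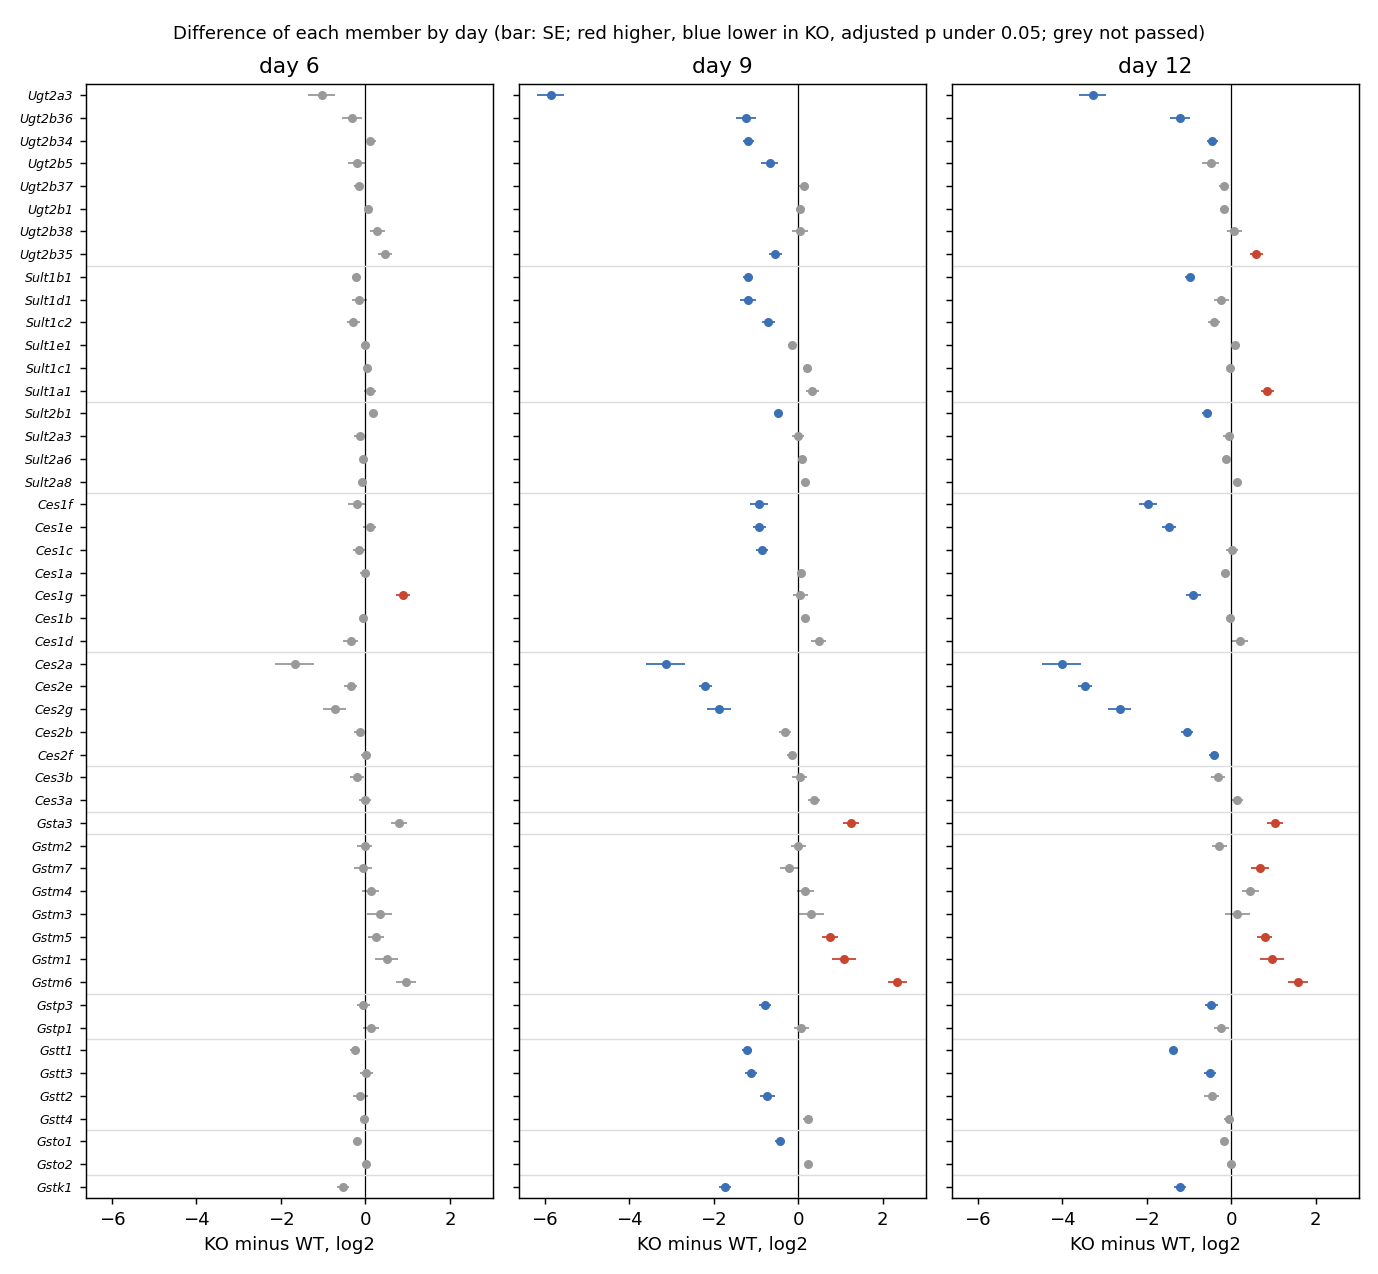
KO minus WT difference on the log2 scale (horizontal axis) for each of the 49 members, 1 per line and grouped by family, at days 6, 9 and 12. Points are differences between groups of 2 mice, bars are SE, red is higher and blue lower in KO mice at an adjusted p under 0.05, and grey did not pass. The plot shows 1 coloured point at day 6, 25 at day 9 and 24 at day 12, with Ugt2a3 farthest to the left at day 9 and Ces2a at day 12.

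Between days 9 and 12, 14 members were called lower at both days and 4 were called higher at both. The share of all genes called at both days was not counted, so the joint counts here have none beside them. At day 9 alone 17.1% of all genes were lower and 12.6% higher, and at day 12 alone 13.7% were each. The 14 were Ugt2a3, Ugt2b34, Ugt2b36, Sult1b1, Sult2b1, Gstk1, Gstp3, Gstt1, Gstt3, Ces1e, Ces1f, Ces2a, Ces2e and Ces2g. Those higher at both were the 4 named above. Ugt2b35 alone passed in opposite directions at the 2 days. A further 6 members passed only at day 9 and 5 only at day 12. The remaining 19 passed at neither, and 11 of these were dim, with a mean signal below 5.01, the 25th percentile of gene means on these arrays. Differences that involve a group mean below that level are given on the log2 scale only.

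Glucuronidation was represented by 8 Ugt2 genes, of which 5 fell at day 9, beside 17.1% of all genes. At day 12 3 fell and 1 rose, beside 13.7% each. Ugt2a3, a glucuronosyltransferase of gut and liver, showed the largest difference of any member. Its log2 signal was 10.64 and 10.49 in WT against 9.72 and 9.35 in KO mice at day 6, 10.49 and 11.01 against 5.05 and 4.73 at day 9, and 11.01 and 10.79 against 7.0 and 8.27 at day 12. The KO mice lay below the WT mice at each day, lowest at day 9, and no KO array overlapped a WT array. The difference was -1.03 (SE 0.32, adjusted p = 0.203) at day 6, -5.86 (SE 0.32, adjusted p = 3.2e-07) at day 9 and -3.27 (SE 0.32, adjusted p = 1.79e-05) at day 12, the last a 9.65-fold lower signal. The day 9 KO mean of 4.89 lay below the 25th percentile of gene means, so the size of that fall is given on the log2 scale alone. The fall was smaller at day 12 than at day 9 by 2.59 (SE 0.46, adjusted p = 0.0106). Without WT day 9 replicate 2 that change was 2.33 (adjusted p = 0.0567). The 2 KO mice stood further apart at day 12 than at day 9.

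The promoter of Ugt2a3 is shown because this gene moved furthest. It covers the 250 bases before the transcription start, at chr5:87337196-87337445 on the minus strand of GRCm38.p6, 5′ to 3′ along the gene, from RefSeq. RefSeq's promoter table held a window for 44 of the 49 members, all but Ces1d, Ces1f, Ces2b, Ces3a and Gstt2. Capitals mark matches, on either strand, to 5 motif cores chosen for this tissue. These were TGACNNNGC (antioxidant response core, bound by the factor encoded by Nfe2l2), GCGTG (dioxin response core, bound by Ahr with Arnt), GTTAAT (HNF1 core), TTTAT (CDX2 core) and CAAAGTC (HNF4 core). A match on the opposite strand reads as the reverse complement, such as ATAAA for the CDX2 core.
Ugt2a3: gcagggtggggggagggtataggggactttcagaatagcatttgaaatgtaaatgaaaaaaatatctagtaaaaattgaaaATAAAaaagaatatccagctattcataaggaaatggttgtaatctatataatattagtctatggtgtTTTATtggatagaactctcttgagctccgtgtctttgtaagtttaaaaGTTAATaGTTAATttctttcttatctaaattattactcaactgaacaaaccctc
The HNF1 core occurred here in a tandem pair, 54 to 49 and 47 to 42 bases before the start. It was present in 7 of the 44 member windows (15.9%) and in 6.52% of the windows of 27025 genes. Of the members called lower at both days 1 of 13 windows held it, and of those passing at neither day 3 of 17. The CDX2 core lay 102 to 98 bases before the start and, on the other strand, 169 to 165 bases before it. That core was in 25 of 44 member windows (56.8%) and in 38.1% of all windows. It was in 53.8% of windows of members called lower at both days and 50.0% of those called higher at both. Among members passing at neither day the share was 58.8%. A match describes letters only, and no binding was measured.

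Ugt2b34, of the Ugt2b branch whose enzymes act on steroids and bile acids, read 12.50 and 12.43 in WT against 12.63 and 12.51 in KO mice at day 6, 12.57 and 12.79 against 11.36 and 11.64 at day 9, and 12.76 and 12.73 against 12.15 and 12.44 at day 12. Both KO mice lay just above both WT mice at day 6 and below them at days 9 and 12. The difference was -1.18 (SE 0.13, adjusted p = 4.77e-05) at day 9 and -0.45 (SE 0.13, adjusted p = 0.0224) at day 12. Without any one of WT day 12 replicate 1, WT day 12 replicate 2 or KO day 12 replicate 1 the day 12 call was lost, and its difference ran from -0.46 to -0.30. Ugt2b36, another Ugt2b enzyme, read 5.71 and 5.52 in WT against 5.27 and 5.34 in KO mice at day 6, 5.26 and 6.12 against 4.64 and 4.28 at day 9, and 5.86 and 5.54 against 4.70 and 4.27 at day 12. Its KO arrays were below the WT arrays at each day, and at days 9 and 12 they were under 5.01. The difference was -1.23 (SE 0.24, adjusted p = 0.00281) at day 9 and -1.21 (SE 0.24, adjusted p = 0.00299) at day 12.

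Ugt2b35 changed sides between days 9 and 12. It read 6.52 and 6.42 in WT against 6.96 and 6.90 in KO mice at day 6, 6.21 and 6.73 against 5.83 and 6.03 at day 9, and 6.57 and 6.86 against 7.35 and 7.27 at day 12. KO mice were above WT mice at days 6 and 12 and below them at day 9, with no overlap at any day. The difference was 0.46 (SE 0.16, adjusted p = 0.244) at day 6, -0.54 (SE 0.16, adjusted p = 0.0229) at day 9 and 0.60 (SE 0.16, adjusted p = 0.0139) at day 12. The change from day 9 to day 12 was 1.13 (SE 0.22, adjusted p = 0.0156). Both calls were lost when single arrays were left out. The day 9 difference was -0.28 (adjusted p = 0.231) without WT day 9 replicate 2 and -0.44 (adjusted p = 0.146) without KO day 9 replicate 1. The day 12 difference was 0.45 (adjusted p = 0.125) without WT day 12 replicate 1 and 0.56 (adjusted p = 0.0636) without KO day 12 replicate 1. The change between the days was likewise not called without WT day 9 replicate 2, KO day 9 replicate 1 or WT day 12 replicate 1.

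Ugt2b5 was the only dim member called, at day 9, with -0.67 (SE 0.20, adjusted p = 0.0265). It was not called without WT day 9 replicate 2 (-0.52) or KO day 9 replicate 2 (-0.51). Ugt2b37, above the dim level, differed by 0.14 at day 9 and -0.17 at day 12 and did not pass. Ugt2b1 and Ugt2b38 were dim and did not pass. On chromosome 5 the 8 genes lie in the order Ugt2b34, Ugt2b1, Ugt2b35, Ugt2b36, Ugt2b5, Ugt2b37, Ugt2a3 and Ugt2b38, so called and uncalled genes are interspersed along the cluster. Close copies within the Ugt2b genes can share probes, so values of single copies are uncertain.

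**Figure D2:**
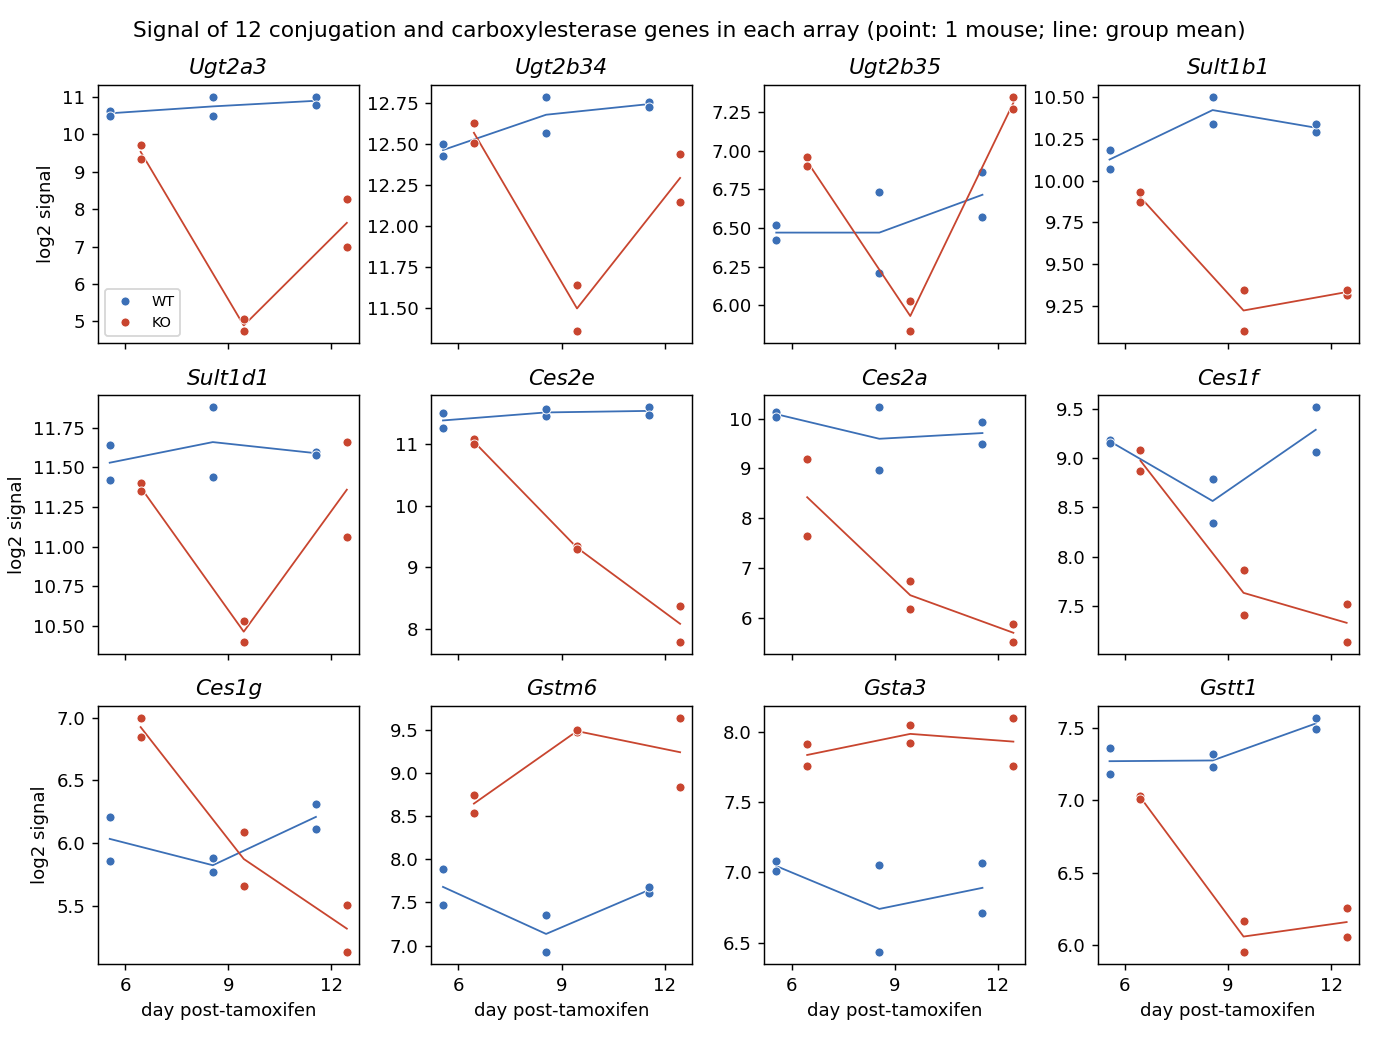
Log2 signal (vertical axes, which differ in range) of 12 members by day post-tamoxifen. Each point is 1 mouse, WT in blue and KO in red, and lines join the means of the 2 mice of a group. Ugt2a3 in KO mice falls to 4.73 and 5.05 at day 9 and reads 7.0 and 8.27 at day 12, while Ces2e goes on falling from 9.30 and 9.34 to 7.79 and 8.38.

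Sulfation was represented by 10 Sult genes, of which 4 fell at day 9, beside 17.1% of all genes. At day 12 2 fell and 1 rose, beside 13.7% each. Next to the Ugt2 genes on chromosome 5 lie Sult1b1, Sult1d1 and Sult1e1. Sult1b1, which sulfates thyroid hormones and small phenols, read 10.18 and 10.07 in WT against 9.93 and 9.87 in KO mice at day 6, 10.34 and 10.50 against 9.10 and 9.35 at day 9, and 10.29 and 10.34 against 9.32 and 9.35 at day 12. Both KO mice were below both WT mice at each day, by the smallest margin at day 6. The difference was -1.20 (SE 0.10, adjusted p = 9.04e-06) at day 9, a 2.29-fold lower signal, and -0.98 (SE 0.10, adjusted p = 3.32e-05) at day 12. Those calls held without any single array.

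Sult1d1, which sulfates catecholamines, fell at day 9 and was not called at day 12. It read 11.64 and 11.42 in WT against 11.40 and 11.35 in KO mice at day 6, 11.44 and 11.88 against 10.53 and 10.40 at day 9, and 11.60 and 11.58 against 11.06 and 11.66 at day 12. KO mice were below WT mice at days 6 and 9, and at day 12 1 KO array lay above both WT arrays. The difference was -1.19 (SE 0.18, adjusted p = 0.000544) at day 9 and -0.23 (SE 0.18, adjusted p = 0.424) at day 12. The change from day 9 to day 12, 0.96 (SE 0.26, adjusted p = 0.0531), missed the threshold. Sult2b1, which sulfates cholesterol, read 9.89 and 9.91 in WT against 10.05 and 10.12 in KO mice at day 6, 9.97 and 9.98 against 9.46 and 9.54 at day 9, and 9.96 and 9.78 against 9.15 and 9.45 at day 12. Its KO arrays were above the WT arrays at day 6 and below them at days 9 and 12. The difference was -0.47 (SE 0.11, adjusted p = 0.00773) at day 9 and -0.57 (SE 0.11, adjusted p = 0.00228) at day 12. Without KO day 9 replicate 1 the day 9 difference was -0.43 (adjusted p = 0.0539).

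Sult1c2, of the Sult1c branch, fell at day 9, with -0.71 (SE 0.15, adjusted p = 0.00372), and differed by -0.40 (adjusted p = 0.0679) at day 12. Sult1a1, the phenol sulfotransferase, went the other way. Its difference was 0.86 (SE 0.15, adjusted p = 0.00107) at day 12 after 0.33 (adjusted p = 0.12) at day 9. Sult1c1, Sult1e1 (the estrogen sulfotransferase), Sult2a3, Sult2a6 and Sult2a8 were dim, between 3.05 and 3.88 in every array, and none passed at either day.

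The 17 Gst genes of glutathione conjugation are grouped here by the direction of the called members of each class. The Gsta class had 1 gene, as its 4 other probe sets carried several symbols. Of the 8 Gsta and Gstm genes, 4 rose at day 9 and 5 at day 12, and none fell. Of the 9 Gstp, Gstt, Gsto and Gstk genes, 6 fell at day 9 and 4 at day 12, and none rose. The contrast between these groups follows in part from grouping by direction. Of the 17 Gst genes together, 4 rose and 6 fell at day 9, and 5 rose and 4 fell at day 12. Over all genes 12.6% rose and 17.1% fell at day 9, and 13.7% did each at day 12. Gstm6, a mu class transferase, read 7.47 and 7.89 in WT against 8.75 and 8.54 in KO mice at day 6, 6.92 and 7.35 against 9.47 and 9.50 at day 9, and 7.61 and 7.68 against 8.84 and 9.64 at day 12. KO mice were above WT mice at each day with no overlap. The difference was 0.96 (SE 0.23, adjusted p = 0.0823) at day 6, 2.35 (SE 0.23, adjusted p = 2.05e-05) at day 9, a 5.1-fold higher signal, and 1.59 (SE 0.23, adjusted p = 0.000296) at day 12. The difference grew by 1.39 (adjusted p = 0.0175) from day 6 to day 9. That growth was not called without WT day 6 replicate 2, KO day 6 replicate 2, WT day 9 replicate 1 or KO day 9 replicate 1.

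Gsta3, an alpha class transferase known for conjugating aflatoxin epoxide in mice, read 7.01 and 7.08 in WT against 7.91 and 7.76 in KO mice at day 6, 6.43 and 7.05 against 8.05 and 7.92 at day 9, and 7.07 and 6.71 against 8.10 and 7.76 at day 12. The KO arrays lay above the WT arrays at each day. The difference was 0.79 (SE 0.19, adjusted p = 0.0902) at day 6, 1.24 (SE 0.19, adjusted p = 0.000545) at day 9 and 1.04 (SE 0.19, adjusted p = 0.00166) at day 12. Gstm1, a major mu class transferase, read 10.84 and 11.04 in WT against 11.64 and 11.24 in KO mice at day 6, 9.29 and 10.39 against 11.03 and 10.81 at day 9, and 10.62 and 10.69 against 11.42 and 11.83 at day 12. KO arrays were again above WT arrays at each day, and WT day 9 replicate 1 was the lowest of all. The difference was 1.08 (SE 0.28, adjusted p = 0.0129) at day 9 and 0.97 (SE 0.28, adjusted p = 0.0229) at day 12.

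Both Gstm1 calls were lost when single arrays were left out. Without WT day 9 replicate 1 the day 9 difference was 0.53 (adjusted p = 0.0949), and without KO day 9 replicate 1 it was 0.97 (adjusted p = 0.0869). At day 12 it was 0.93, 1.01 and 0.77 without WT day 12 replicate 1, WT day 12 replicate 2 and KO day 12 replicate 2 in turn, and was not called. WT day 9 replicate 1 read below replicate 2 in every Gstm gene except Gstm5. WT day 9 replicate 2 exceeded it by a median of 0.54 over the 7 Gstm genes, beside 0.12 over the 49 members and -0.01 over all genes. Without replicate 1 the Gstm5 and Gstm6 calls at day 9 held.

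Gstm5 rose by 0.75 (SE 0.18, adjusted p = 0.0092) at day 9 and 0.80 (SE 0.18, adjusted p = 0.00658) at day 12. The day 9 rise was not called without WT day 9 replicate 2 (0.59) or KO day 9 replicate 1 (0.55), nor the day 12 rise without WT day 12 replicate 1 (0.71) or KO day 12 replicate 1 (0.65). Gstm7 passed only at day 12, with 0.68 (SE 0.21, adjusted p = 0.0283). It fell short without WT day 12 replicate 1 (0.59), WT day 12 replicate 2 (0.78) or KO day 12 replicate 2 (0.32). Gstm3, which read 11.30 to 13.23, differed by 0.31 at day 9 and 0.15 at day 12, which did not pass. Its other probe set gave 0.57 and 0.10. Gstm2 and Gstm4 did not pass at any day. The 7 genes lie side by side on chromosome 3 in the order Gstm5, Gstm7, Gstm6, Gstm3, Gstm2, Gstm1 and Gstm4, and are close copies whose probes may detect one another.

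The promoters of the 4 genes called higher at both days are shown because these genes rose while most other called members fell. They are the 250 bases before the start of Gsta3 at chr1:21240335-21240584 (plus strand), Gstm1 at chr3:108017974-108018223 (minus strand), Gstm5 at chr3:107895604-107895853 (plus strand) and Gstm6 at chr3:107953467-107953716 (minus strand), all on GRCm38.p6 and from RefSeq. RefSeq lists 2 windows for Gstm1 and 3 for Gstm6, and the first is shown.
Gsta3: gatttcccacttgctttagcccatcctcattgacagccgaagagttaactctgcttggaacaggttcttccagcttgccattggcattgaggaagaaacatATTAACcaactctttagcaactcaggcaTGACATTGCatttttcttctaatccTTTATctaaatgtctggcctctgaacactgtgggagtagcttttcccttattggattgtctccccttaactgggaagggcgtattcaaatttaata
Gstm1: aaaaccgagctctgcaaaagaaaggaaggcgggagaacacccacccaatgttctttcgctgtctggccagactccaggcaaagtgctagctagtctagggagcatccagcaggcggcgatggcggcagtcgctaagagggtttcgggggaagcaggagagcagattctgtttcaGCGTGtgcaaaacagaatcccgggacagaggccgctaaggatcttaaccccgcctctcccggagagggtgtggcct
Gstm5: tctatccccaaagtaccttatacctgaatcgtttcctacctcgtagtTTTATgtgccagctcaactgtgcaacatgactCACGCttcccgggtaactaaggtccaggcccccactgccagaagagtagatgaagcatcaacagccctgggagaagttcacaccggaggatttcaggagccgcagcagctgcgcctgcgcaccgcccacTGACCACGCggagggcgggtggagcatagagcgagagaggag
Gstm6: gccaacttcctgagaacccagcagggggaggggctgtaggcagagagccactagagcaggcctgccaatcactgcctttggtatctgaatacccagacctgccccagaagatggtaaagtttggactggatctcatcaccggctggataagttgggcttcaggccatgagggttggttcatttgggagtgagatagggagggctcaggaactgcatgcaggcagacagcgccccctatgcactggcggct
Gsta3 held the antioxidant response core 121 to 113 bases before the start and Gstm5 held it 42 to 34 bases before the start. These were the only 2 of 44 member windows with that core (4.55%), which is in 10.1% of all windows. None of the 13 windows of members called lower at both days held it, nor any of the 17 of members passing at neither day. The dioxin response core lay 76 to 72 bases before the start of Gstm1. In Gstm5 it lay on the other strand at 171 to 167 bases and at 38 to 34 bases, the latter inside the antioxidant response core. The dioxin response core was in 5 of 44 member windows (11.4%) and in 28.2% of all windows. One of the members called lower at both days, Gstp3, also held it, as did Gstp1, which passed at neither day. Gsta3 also held the HNF1 core and the CDX2 core, Gstm5 the CDX2 core, and Gstm6 no match.

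The falling Gst genes were led by Gstk1, the kappa class enzyme of mitochondria and peroxisomes. It read 8.72 and 8.79 in WT against 8.33 and 8.12 in KO mice at day 6, 8.57 and 8.87 against 7.0 and 6.98 at day 9, and 8.72 and 8.62 against 7.29 and 7.65 at day 12. KO mice were below WT mice at each day, most at day 9. The difference was -0.53 (SE 0.14, adjusted p = 0.109) at day 6, -1.73 (SE 0.14, adjusted p = 4.15e-06) at day 9, a 3.31-fold lower signal, and -1.20 (SE 0.14, adjusted p = 4.94e-05) at day 12. Gstt1, a theta class transferase that acts on small halogenated compounds, read 7.36 and 7.18 in WT against 7.03 and 7.01 in KO mice at day 6, 7.23 and 7.32 against 6.17 and 5.95 at day 9, and 7.49 and 7.57 against 6.26 and 6.06 at day 12. Both KO mice were below both WT mice at each day, and the gap widened after day 6. The difference was -1.21 (SE 0.11, adjusted p = 1.22e-05) at day 9 and -1.37 (SE 0.11, adjusted p = 3.57e-06) at day 12. The Gstk1 and Gstt1 calls at days 9 and 12 held without any single array.

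Gstt3, a neighbouring theta class gene on chromosome 10, read 8.03 and 8.57 in WT against 8.30 and 8.35 in KO mice at day 6, 8.51 and 8.54 against 7.45 and 7.36 at day 9, and 8.33 and 8.04 against 7.74 and 7.63 at day 12. The genotypes overlapped at day 6 and were apart at days 9 and 12. The difference was -1.12 (SE 0.15, adjusted p = 0.000259) at day 9 and -0.50 (SE 0.15, adjusted p = 0.0328) at day 12. The day 12 call was lost without WT day 12 replicate 1 (-0.35), KO day 12 replicate 1 (-0.55) or KO day 12 replicate 2 (-0.44). Gstt2 fell at day 9 only, with -0.73 (SE 0.18, adjusted p = 0.0101), a call lost without WT day 9 replicate 2 (-0.64) or KO day 9 replicate 2 (-0.57). Gstt4 was dim and did not pass.

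Gstp3, a pi class gene, read 6.50 and 7.08 in WT against 6.66 and 6.81 in KO mice at day 6, 7.13 and 7.16 against 6.33 and 6.39 at day 9, and 6.84 and 6.72 against 6.32 and 6.30 at day 12. KO mice overlapped WT mice at day 6 and were below them at days 9 and 12. The difference was -0.79 (SE 0.15, adjusted p = 0.00235) at day 9 and -0.47 (SE 0.15, adjusted p = 0.0388) at day 12, the latter lost under each removal of a day 12 array (from -0.53 to -0.41). Gstp1, the main pi class gene, differed by 0.07 and -0.23 at days 9 and 12 and did not pass. Gsto1, an omega class enzyme that reduces dehydroascorbate, read 10.15 and 10.10 in WT against 9.86 and 10.01 in KO mice at day 6, 10.30 and 10.38 against 9.86 and 9.95 at day 9, and 10.22 and 10.36 against 10.25 and 10.00 at day 12. Both KO arrays were below both WT arrays at days 6 and 9, and at day 12 the genotypes overlapped. Its difference was -0.44 (SE 0.11, adjusted p = 0.00925) at day 9. It was not called without WT day 9 replicate 2 (-0.40), without KO day 9 replicate 1 (-0.39) or after quantile normalisation (-0.22). Gsto2 was dim and did not pass.

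Ester hydrolysis was represented by 14 Ces genes, of which 6 fell at day 9 and 8 at day 12, and none rose at either day. Among all genes 17.1% fell and 12.6% rose at day 9, and 13.7% did each at day 12. The Ces2 carboxylesterases, the class that cleaves many ester prodrugs in the gut, had 3 of 5 lower at day 9 and 5 of 5 at day 12. Ces2a read 10.14 and 10.04 in WT against 9.19 and 7.65 in KO mice at day 6, 8.96 and 10.23 against 6.73 and 6.17 at day 9, and 9.94 and 9.48 against 5.51 and 5.88 at day 12. KO mice were below WT mice at each day, and the 2 KO mice at day 6 differed widely from each other. The difference was -1.67 (SE 0.46, adjusted p = 0.144) at day 6, -3.14 (SE 0.46, adjusted p = 0.000396) at day 9 and -4.01 (SE 0.46, adjusted p = 5.7e-05) at day 12, the last a 16.1-fold lower signal.

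Ces2e read 11.51 and 11.26 in WT against 11.08 and 11.00 in KO mice at day 6, 11.46 and 11.57 against 9.34 and 9.30 at day 9, and 11.60 and 11.48 against 7.79 and 8.38 at day 12. The KO arrays were below the WT arrays at each day and lowest at day 12. The difference was -0.35 (SE 0.16, adjusted p = 0.428) at day 6, -2.20 (SE 0.16, adjusted p = 2.21e-06) at day 9 and -3.46 (SE 0.16, adjusted p = 5.2e-08) at day 12, an 11.0-fold lower signal. From day 9 to day 12 its difference changed by -1.26 (SE 0.23, adjusted p = 0.0113), the opposite direction to that of Ugt2a3. Ces2g read 8.63 and 8.63 in WT against 8.17 and 7.63 in KO mice at day 6, 7.78 and 8.31 against 6.34 and 5.99 at day 9, and 8.98 and 9.53 against 6.23 and 7.01 at day 12. KO mice were below WT mice at each day with no overlap. The difference was -1.88 (SE 0.28, adjusted p = 0.000414) at day 9, a 3.67-fold lower signal, and -2.64 (SE 0.28, adjusted p = 2.92e-05) at day 12.

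Ces2b passed at day 12, with -1.05 (SE 0.14, adjusted p = 0.00021), after -0.32 (adjusted p = 0.119) at day 9. Ces2f, near the dim end, passed at day 12 with -0.41 (SE 0.12, adjusted p = 0.0261). It was not called without WT day 12 replicate 1 (-0.35), WT day 12 replicate 2 (-0.46) or KO day 12 replicate 2 (-0.28). The Ces2 genes are close copies in 1 cluster on chromosome 8, after the Ces1 genes and before Ces3a and Ces3b.

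The promoters of the 3 Ces2 genes called lower at both days are shown to compare copies that fell together. On GRCm38.p6 they lie at chr8:104733753-104734002 (Ces2a), chr8:104926010-104926259 (Ces2e) and chr8:104961468-104961717 (Ces2g), all on the plus strand, 250 bases each, from RefSeq.
Ces2a: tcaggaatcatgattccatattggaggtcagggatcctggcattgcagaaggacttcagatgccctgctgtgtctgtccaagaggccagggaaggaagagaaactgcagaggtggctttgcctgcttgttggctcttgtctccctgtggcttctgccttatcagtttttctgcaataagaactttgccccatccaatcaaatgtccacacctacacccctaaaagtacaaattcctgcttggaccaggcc
Ces2e: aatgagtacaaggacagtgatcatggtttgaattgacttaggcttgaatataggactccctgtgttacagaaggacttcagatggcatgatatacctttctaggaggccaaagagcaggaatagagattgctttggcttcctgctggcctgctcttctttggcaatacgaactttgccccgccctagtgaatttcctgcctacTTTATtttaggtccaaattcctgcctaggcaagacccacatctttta
Ces2g: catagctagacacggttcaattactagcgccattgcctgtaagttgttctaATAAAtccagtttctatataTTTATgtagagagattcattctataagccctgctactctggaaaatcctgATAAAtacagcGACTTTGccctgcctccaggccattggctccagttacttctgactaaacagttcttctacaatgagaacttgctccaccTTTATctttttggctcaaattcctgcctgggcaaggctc
Aligned end to end, the Ces2a and Ces2e windows were 53.2% identical, Ces2e and Ces2g 51.1%, and Ces2a and Ces2g 49.5%. All other pairs among the promoters shown in this report ran from 35.8% (Ugt2a3 and Gstm5) to 48.0% (Ces2e and Gsta3). The Ces2 values therefore lie little above those of genes from different families. The longest stretch shared by Ces2a and Ces2e was the 17 bases cagaaggacttcagatg. Ces2e and Ces2g shared 13 bases, caaattcctgcct, 34 and 24 bases before their starts, and Ces2a held the first 11 of them. Ces2e had 1 CDX2 core and Ces2g had 4, while Ces2a had none of the 5 motif cores. The HNF4 core, found on the other strand in Ces2g 118 to 112 bases before the start, was in 2 of 44 member windows (4.55%) and in 3.80% of all windows.

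Among the 7 Ces1 carboxylesterases, 3 fell at day 9 and 3 at day 12, beside 17.1% and 13.7% of all genes. Ces1f read 9.19 and 9.16 in WT against 8.87 and 9.08 in KO mice at day 6, 8.34 and 8.79 against 7.86 and 7.40 at day 9, and 9.06 and 9.52 against 7.52 and 7.13 at day 12. KO mice were below WT mice at each day, and the gap was widest at day 12. The difference was -0.93 (SE 0.21, adjusted p = 0.00575) at day 9 and -1.97 (SE 0.21, adjusted p = 2.93e-05) at day 12, the latter a 3.91-fold lower signal. The day 9 difference was -0.70 without WT day 9 replicate 2 (adjusted p = 0.0671) and -0.70 without KO day 9 replicate 2 (adjusted p = 0.0506). Ces1e read 7.03 and 6.88 in WT against 6.96 and 7.16 in KO mice at day 6, 6.67 and 7.22 against 6.07 and 5.97 at day 9, and 7.24 and 7.17 against 5.84 and 5.64 at day 12. The genotypes overlapped at day 6 and were apart afterwards. The difference was -0.92 (SE 0.16, adjusted p = 0.0011) at day 9 and -1.47 (SE 0.16, adjusted p = 3.39e-05) at day 12.

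Ces1g, known for its part in lipid handling, was higher in KO mice at day 6 and lower at day 12. It read 6.21 and 5.86 in WT against 7.0 and 6.85 in KO mice at day 6, 5.77 and 5.88 against 6.09 and 5.66 at day 9, and 6.11 and 6.31 against 5.51 and 5.13 at day 12. KO arrays lay above WT arrays at day 6, overlapped them at day 9 and lay below them at day 12. The difference was 0.89 (SE 0.17, adjusted p = 0.0424) at day 6, 0.05 (SE 0.17, adjusted p = 0.867) at day 9 and -0.89 (SE 0.17, adjusted p = 0.00217) at day 12. The day 6 call was lost without any 1 of the 4 day 6 arrays (0.72 to 1.06), and without any 1 WT array of day 9 or 12. It was also lost with the replicate number as a block (0.89, adjusted p = 0.07) and with the mean of general epithelial markers in each array as a covariate (0.69, adjusted p = 0.238). The genotype by day interaction of Ces1g had an adjusted p of 0.0016 and held under each alternative run.

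Ces1c, a secreted esterase of plasma, fell at day 9 with -0.86 (SE 0.14, adjusted p = 0.000905) and differed by 0.03 at day 12. Ces1d, a lipid hydrolase, differed by 0.48 at day 9 (adjusted p = 0.0669) and did not pass. Ces1a and Ces1b did not pass either, nor did Ces3a (0.38 at day 9) or Ces3b. Hepatocyte markers, checked because liver carries much carboxylesterase, averaged 6.46 to 6.65 in WT and 6.36 to 6.51 in KO mice. Of 10 listed, 9 were measured. At day 9 Cyp3a11 (-2.26), Cps1 (-1.25) and Ttr (-0.41) fell and Tat (2.11) rose, beside 17.1% and 12.6% of all genes. Cyp3a11 and Cps1 read up to 12.26 and 12.06, so the average rests largely on them. Alb, Apoh, Fgb and Ahsg read 4.41 to 5.18 over all arrays and did not pass at any day. Cyp3a11 and Cps1 stood far above these genes in every array, so their falls cannot be read as a change in hepatocytes.

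The differences depended on the day in 17 members (34.7%) by the genotype by day interaction, beside 18.5% of all genes. From day 6 to day 9, 14 members moved down and 1 moved up, 30.6% beside 12.7% of all genes (9.19% down, 3.52% up). Of these 15 changes, 7 held whichever single array was left out, those of Ugt2a3, Ugt2b34, Sult1b1, Gstk1, Gstt1, Gstt3 and Ces2e. With the mean of smooth muscle markers in each array as a covariate, 7 of the 15 were not called, among them the upward change of Gstm6 (1.65, adjusted p = 0.0891), and all 7 kept their sign. From day 9 to day 12, 6 members moved (12.2%), beside 6.08% of all genes (4.06% up, 2.02% down). Ugt2a3, Ugt2b34, Ugt2b35 and Ces1c moved up, and Ces2e and Ces1g moved down. For Ces1c the WT mean went from 6.02 to 5.29 while the KO mean went from 5.16 to 5.33. The changes of Ugt2b34, Ugt2b35, Ces1c and Ces1g between these days were each lost in more than 1 removal of a single array. That of Ugt2a3 was lost in 1 removal, and that of Ces2e in none. In WT mice no member changed with day by limma's moderated F test, in which 0.0201% of all genes were called. At an unadjusted p under 0.05 there were 7 of 49 (14.3%), beside 10.0% of all genes.

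**Figure D3:**
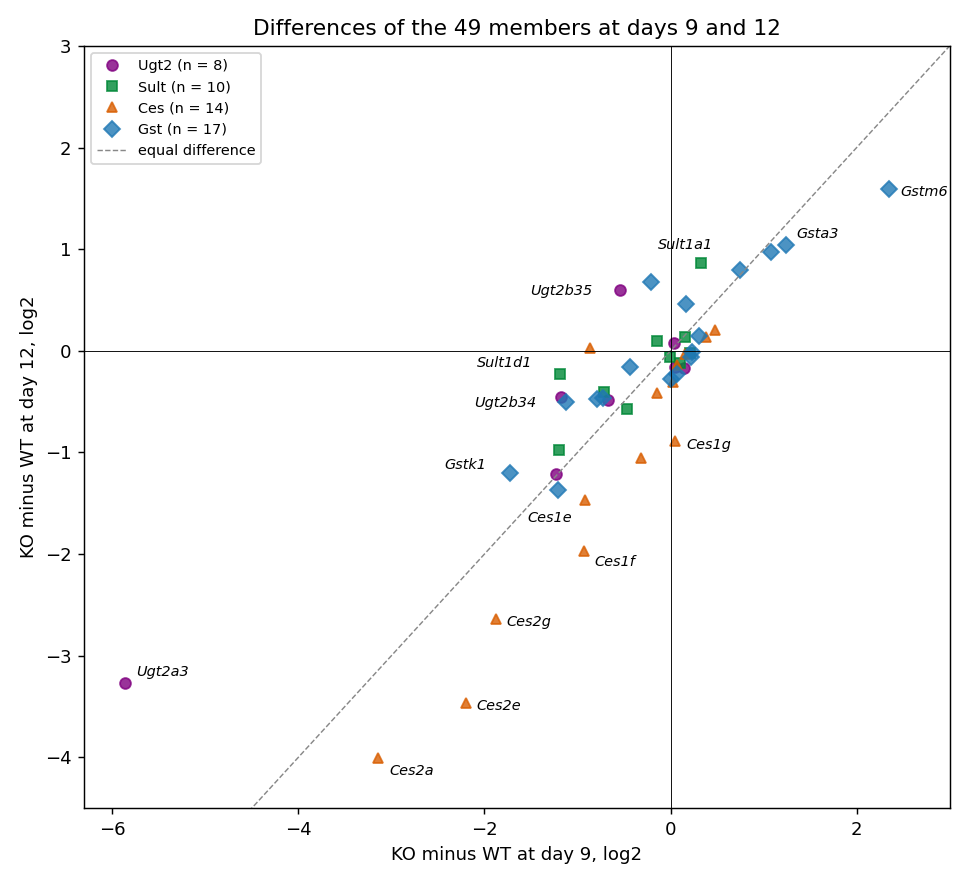
KO minus WT difference at day 9 (horizontal axis, log2) against day 12 (vertical axis, log2) for the 49 members, 1 point each, coloured by family, with a dashed line where both days are equal. Ugt2a3 lies above the line (-5.86 and -3.27) and Ces2a and Ces2e lie below it (-3.14 and -4.01, and -2.20 and -3.46).

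Averaged over the 3 days, 21 members were lower and 5 higher, 53.1% beside 32.6% of all genes (16.9% lower, 15.7% higher). The averages were -3.39 (SE 0.19, adjusted p = 1.13e-07) for Ugt2a3, -2.94 (SE 0.27, adjusted p = 6.38e-06) for Ces2a and 1.64 (SE 0.13, adjusted p = 2.49e-06) for Gstm6. For the 4 largest called falls and the 4 largest called rises, genotype labels were also exchanged within days in a two-sided exact permutation test of 216 arrangements. The p was 0.00926, the smallest it can give, for Ugt2a3, Ces2a, Ces2e, Ces2g, Gstm6, Gsta3 and Gstm1, and 0.0185 for Gstm5. These 8 were chosen by their averages, so the values describe them. At a single day an exact test of 2 mice against 2 cannot pass the threshold.

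Over the 12 arrays, the 5 genes outside the group whose signal followed Ugt2a3 most closely were Pdk2 (Pearson r = 0.995), Echdc1 (0.993), Acad11 (0.993), G6pc (0.989) and Cyp3a25 (0.988). These arrays share the genotype and day groups, so the coefficients describe the group pattern.

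Cofactor supply moved in both directions. Of 16 measured genes, 6 rose and 5 fell at day 9, and 5 rose and 3 fell at day 12. Over all genes 12.6% rose and 17.1% fell at day 9, and 13.7% did each at day 12. On the sulfate side, Papss1, which makes the activated sulfate donor, differed by -1.75 at day 9 and -1.36 at day 12, both called. Bpnt1, which clears the spent donor, differed by -1.96 and -1.55, both called. The sulfate transporter Slc26a2 differed by -1.20 at day 9, which was called, and -0.30 at day 12, which was not. Papss2 did not pass.

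On the glutathione side, the cystine transporter Slc7a11 rose by 3.80 at day 9 and 4.84 at day 12. Gclc, the catalytic subunit of glutamate-cysteine ligase, rose by 1.07 and 1.07, and Gss, glutathione synthetase, by 0.94 and 1.10. Gclm, the modifier subunit, was lower at day 9 (-0.39). For glucuronidation, Ugdh, which makes UDP-glucuronic acid, rose at days 6 and 9 (0.54 and 0.34), and Ugp2 rose at day 12 (0.72).

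**Figure D4:**
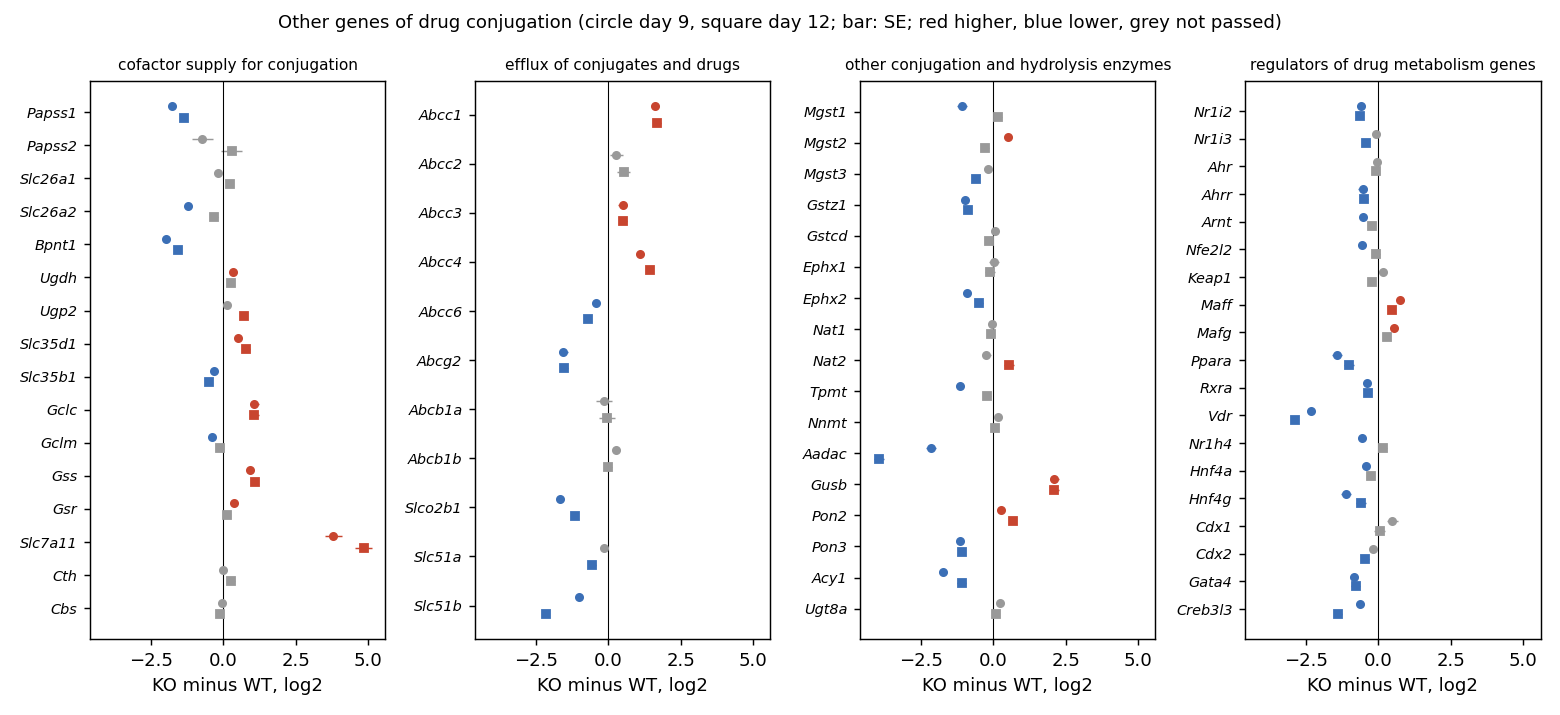
KO minus WT difference (horizontal axis, log2) of the genes of 4 lists, namely cofactor supply, efflux, other enzymes and regulators. Circles are day 9 and squares day 12, bars are SE, red is higher and blue lower in KO mice at an adjusted p under 0.05, and grey did not pass. Slc7a11 is farthest to the right (3.80 and 4.84) and Aadac at day 12 farthest to the left (-3.94).

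Of 11 efflux and uptake genes, 3 rose and 4 fell at day 9, beside 12.6% and 17.1% of all genes. At day 12, 3 rose and 5 fell, beside 13.7% each. Abcc1 and Abcc4, pumps for glutathione and other conjugates, rose by 1.61 and 1.11 at day 9 and by 1.68 and 1.43 at day 12. Abcg2, an apical pump for drugs and sulfate conjugates, differed by -1.54 and -1.52, and the uptake carrier Slco2b1 by -1.67 and -1.14, all called. Slc51b, a subunit of the basolateral bile acid exporter, differed by -1.01 and -2.15, both called. Abcc2 and Abcb1a did not pass.

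Of 17 other measured conjugation and hydrolysis enzymes, 3 rose and 7 fell at day 9, beside 12.6% and 17.1% of all genes. At day 12, 3 rose and 6 fell, beside 13.7% each. Aadac, a lipid and drug deacetylase, differed by -2.15 at day 9 and -3.94 at day 12. Gusb, the lysosomal enzyme that removes glucuronic acid, rose by 0.86, 2.11 and 2.11 at days 6, 9 and 12. Mgst1, a microsomal glutathione transferase, and Tpmt, a methyltransferase for thiopurines, were lower at day 9 (-1.07 and -1.15) and not called at day 12.

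Of 19 measured regulators of these genes, 12 fell and 2 rose at day 9, beside 17.1% and 12.6% of all genes. At day 12, 10 fell and 1 rose, beside 13.7% each. Vdr, the vitamin D receptor, showed the largest differences, -2.32 and -2.87. Ppara (-1.41 and -1.01), Hnf4g (-1.10 and -0.58) and Nr1i2, the xenobiotic receptor PXR (-0.59 and -0.64), were called lower at both days. Nfe2l2 was lower at day 9 (-0.54), its partner Maff was higher at both days (0.76 and 0.48), and Ahr did not pass.

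Cell type marker lists differed in direction. No smooth muscle marker was called at day 9 or 12. At day 6 their median difference was -1.34, and 1 was called, Hspb6 (-1.67, adjusted p = 0.0427). Of 14 enterocyte markers, 8 fell and none rose at day 9, and 9 fell and 1 rose at day 12. Among all genes 17.1% fell and 12.6% rose at day 9, and 13.7% did each at day 12. Of 12 general epithelial markers, 1 fell and 4 rose at day 9, and 2 fell and 3 rose at day 12. Of 12 measured immune markers, 2 fell and 2 rose at day 9, and 5 fell and none rose at day 12. With the general epithelial mean of each array as a covariate, 14 members were called at day 9 (12 lower, 2 higher) beside 11.2% of all genes, and 22 at day 12 beside 24.4%. Ugt2a3, Ces2a and Ces2e kept their day 9 calls in that fit, while 12 others were not called. All 12 kept their sign. Their differences were 59.6% to 134% of the size without the covariate, 4 of them larger, and their SEs were a median of 1.53 times as large. Gstm1 went from 1.08 to 1.44 (adjusted p = 0.0541), Gsta3 from 1.24 to 0.89 (adjusted p = 0.0637), Gstm5 from 0.75 to 0.50 (adjusted p = 0.303) and Ces2g from -1.88 to -1.12 (adjusted p = 0.0517). Smooth muscle markers averaged 8.18 to 9.50 in WT, 7.76 to 7.92 in KO mice at day 6 and 8.16 to 9.81 in KO mice at days 9 and 12. Fibroblast markers averaged 8.64 to 9.33 in WT and 9.54 to 9.89 in KO mice at days 9 and 12, with 4 of 7 called higher at each. The part of the enterocyte, immune and fibroblast shifts in the enzyme differences was not tested.

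**Figure D5:**
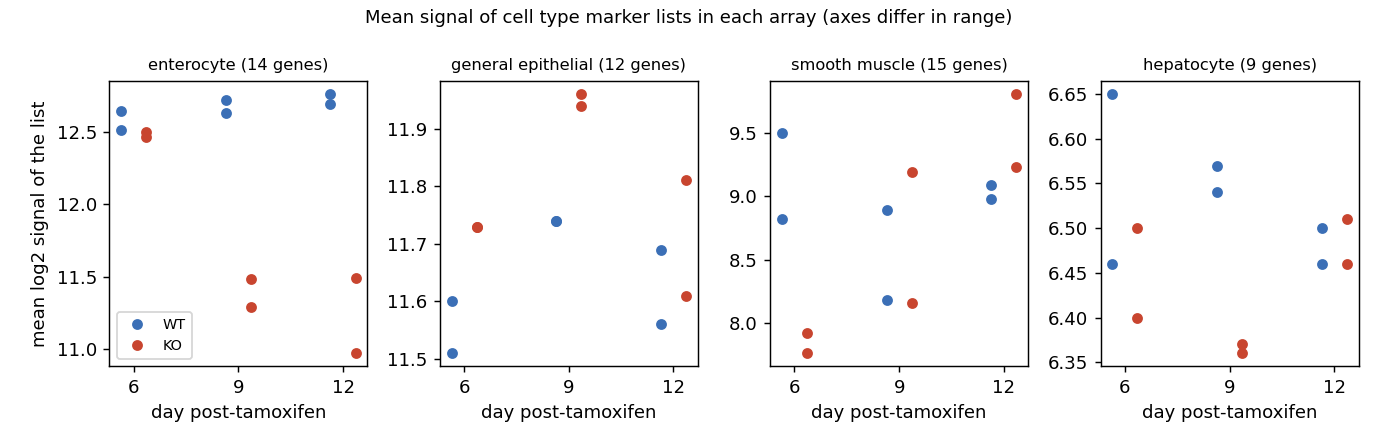
Mean log2 signal (vertical axes, which differ in range) of 4 lists of cell type markers in each array by day post-tamoxifen, WT in blue and KO in red, 1 point per mouse. The enterocyte mean of KO mice at days 9 and 12 lies between 10.97 and 11.49, below all WT arrays (12.51 to 12.76), while the general epithelial mean of KO mice at those days lies between 11.61 and 11.96.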

How the data were processed

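RNA of whole jejunum from 12 mice was hybridised to 1 array each. Per the labels, arrays were one-colour with biotin label. The log2 signals of 35556 probe sets, as the authors deposited them (2.29 to 14.13), were used with no further scaling. Processing notes from the submitters name limma and R 3.5, while the sources used here do not give the background correction, summarisation or normalisation. Names came from the platform's annotation table, in which 21789 probe sets had a single symbol, 1621 had more and 12146 have no name here. Where a symbol had several probe sets (999 symbols), the brightest on average was kept, leaving 19938 genes.

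A mean per group was fitted over all 12 arrays with limma 3.58.1 in R 4.3.3 (empirical Bayes moderation, with 6 residual and 5.23 prior degrees of freedom). Tests were two-sided with Benjamini-Hochberg adjustment over 19938 genes, and the fit was tested on simulated data. The median SE of a difference at 1 day was 0.11, and precision is limited by the number of arrays. The labels name no litter, cage or array batch, so part of the spread between mice may be technical.

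Members and gene lists were chosen with earlier results of these data known. Values in every array are given, per family, for the 2 largest called falls and the 2 largest called rises at day 9 whose arrays did not overlap, for members called at day 6, for the 4 with the smallest interaction p, and for any called in opposite directions. Ces2g and Ugt2b34, outside this rule, are also given in every array and were chosen after their values were seen. The remaining called members are given as differences, and Ces1c with its group means as well. Promoter windows came from RefSeq, and motifs were searched on both strands. Alternatives covered scaling, dim genes, probe set choice, moderation, array weights, a replicate block, marker covariates, days fitted alone and each array left out. The labels do not say whether replicate numbers pair the mice, and the main fit did not use them. Deviations from the group means of equally numbered WT and KO mice correlated at 0.18, -0.0897 and 0.113 at days 6, 9 and 12. A single coefficient per day cannot decide whether the mice were paired.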

Additional observations from a re-analysis of the deposited data

Results flagged for a closer look

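The KO minus WT difference changed with day, by limma's genotype by day F test adjusted over all genes, in 17 members, beside 18.5% of all genes. Groups of 2 mice are too small to test for a mouse that stands apart.

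Among the Ugt2 genes the adjusted p was 0.000155 for Ugt2a3, whose fall was deepest at day 9. It was 0.00202 for Ugt2b34 and 0.00809 for Ugt2b35, which was lower at day 9 and higher at day 12. Among sulfotransferases it was 0.00257 for Sult1b1, 0.0251 for Sult1d1 and 0.0111 for Sult2b1.

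Among glutathione transferases it was 0.00113 for Gstt1, 0.0116 for Gstt3, 0.00446 for Gstk1 and 0.0304 for Gstm6. Gstm6 was the only 1 of the 17 called higher at both days 9 and 12.

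Among carboxylesterases it was 2.17e-05 for Ces2e, the smallest of the members, whose difference was more negative at each later day. It was 0.0164 for Ces2g and 0.0177 for Ces2b. For the Ces1 genes it was 0.0016 for Ces1g, which rose at day 6 and fell at day 12, 0.00194 for Ces1e, 0.00519 for Ces1f and 0.0205 for Ces1c.

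Of 21 alternatives, the interaction call was lost in 9 for Gstm6, 9 for Sult1d1, 4 for Ces2g, 3 for Ces1c, 2 for Sult2b1, 1 for Ces2b and 1 for Gstt3. The other 10 kept it in each.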

How the results depend on the processing

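Over 97 calls of a member in a comparison, 2084 alternative fits kept the call in 1903, ended it in 181 and reversed none. Of the 97, 67 held whichever single array was left out and 51 held under every alternative run. The largest number of calls lost to 1 array was 18, without WT day 9 replicate 2. The count at day 6, 1 member, was 2 with array weights and 0 with the replicate block, and ran from 0 to 3 with 1 array left out. The day 9 count of 25 was 14, and the average's count of 26 was 17, with the general epithelial mean as a covariate, which also took the share of all genes called at day 9 from 29.7% to 11.2%. The calls lost with it, 12 at day 9 and 10 for the average, kept their sign at a median of 90.6% and 87.8% of their size, with SEs a median of 1.53 and 1.84 times as large. The cause was not tested. With 1 array left out the counts ran from 20 to 26 at day 9, from 16 to 25 at day 12, from 26 to 29 for the average and from 14 to 20 for the interaction, and stayed at 0 for WT days. An array left alone in its group was assumed to vary like the others. Whether the replicate numbers pair the mice is not known, and with the replicate block the counts were 26, 26, 27 and 20 in the same order. With only 2 mice a group, small differences at a single day cannot be resolved, and dim genes lie too near background for a fold.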
